A study of Mus musculus with 12 samples.

Results

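Chemokine receptors are G protein-coupled receptors that read gradients of small secreted proteins, the chemokines, and direct where leukocytes move. Messenger RNA of 9 such receptors (Xcr1, Cxcr3, Ccr9, Cx3cr1, Ccr6, Ccr1, Ccr7, Cxcr4 and Ccr2) is described here in conventional dendritic cells of the mouse spleen. The receptors were taken by name, with earlier results of these data known. All 9 had a value, among 19938 genes with a value on the arrays. All 9 also passed the filter on dim genes and were among the 14953 genes tested. Each was read by 1 probe set that names no other gene.

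RNA was measured on 12 GeneChip arrays, with 2 biological replicates in each of 6 groups. The cells were mature cDC1 and mature cDC2, which are separate lineages of conventional dendritic cells, from the spleens of wild-type (WT), Flt3 knockout (KO) and Flt3L KO mice analysed at steady state. Spleens of every group had been digested with Collagenase B and DNAse 1 before sorting. Flt3 is a receptor tyrosine kinase on dendritic cells and their precursors, and Flt3L is its ligand, a growth factor that expands the dendritic cell lineage. The knockouts remove the receptor or the ligand throughout the animal as far as the labels say, since no promoter, Cre driver, strain, age or number of pooled mice is named. The labels also do not name the surface markers used for sorting. Xcr1 protein is widely used to gate cDC1, and whether it was used here is not given. Whether replicates came from separate mice is not stated beyond the word biological, so the p-values measure the spread between these samples.

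A chemokine binds its receptor from outside the cell, the receptor activates inhibitory G proteins, and kinases and arrestins then switch it off. Mouse cDC1 are known for Xcr1, through which they meet cells that secrete Xcl1, and splenic cDC2 are known for positioning through other receptors such as Gpr183. Ccr7 leads maturing dendritic cells toward T cell zones, Cxcr4 is known for retaining cells in bone marrow, and Ccr2 for the exit of monocytes from it.

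The labels were checked first. Flt3 intensity averaged 2299 ± 47.6 (SD, n = 2) in WT cDC1 and 364 ± 9.58 in Flt3 KO cDC1, and 1779 ± 53.2 in WT cDC2 and 361 ± 14.6 in Flt3 KO cDC2. The probe set for Flt3l read 113 ± 0.611 in WT cDC1 and 124 ± 6.68 in Flt3L KO cDC1 (log2 difference 0.13, adjusted p = 0.4), and 147 ± 3.24 in WT cDC2 and 114 ± 6.27 in Flt3L KO cDC2 (-0.37, adjusted p = 0.027). The Flt3l difference passed in cDC2 and not in cDC1, and in cDC2 the call was lost without any 1 of the 4 arrays compared (adjusted p = 0.056 to 0.21). Whether the probe set lies in the deleted part is not given. All 8 cDC1 marker genes were higher and all 8 cDC2 marker genes lower in cDC1 than in cDC2 in each genotype. Some of them shifted from WT. In Flt3L KO cDC2, Irf8 (0.52 ± 0.08, adjusted p = 0.0079 in limma) and Cadm1 (0.56 ± 0.10, adjusted p = 0.017) were higher. Cd209a (-0.98 ± 0.13, adjusted p = 0.0025) and Clec4a4 (-0.70 ± 0.13, adjusted p = 0.018) were lower there. Tlr3 was lower in Flt3L KO cDC1 (-0.69 ± 0.14) and Cd209a higher in Flt3 KO cDC1 (0.92 ± 0.13). No other of these markers passed against WT within a cell type. Median intensity ranged from 59 to 63 over the 12 arrays. The array of WT cDC1 replicate 1 stood apart, with a lower quartile of 25.7 against 23.3 to 24.3 on the others, and the WT cDC1 replicates differed most from each other (SD of their log2 difference 0.21, against 0.135 to 0.159 in the other groups). As a guide to the signal of genes not expected in dendritic cells, the 95th percentile over 1027 olfactory receptor genes lay between 43.4 and 48 in the 6 groups.

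**Figure D1:**
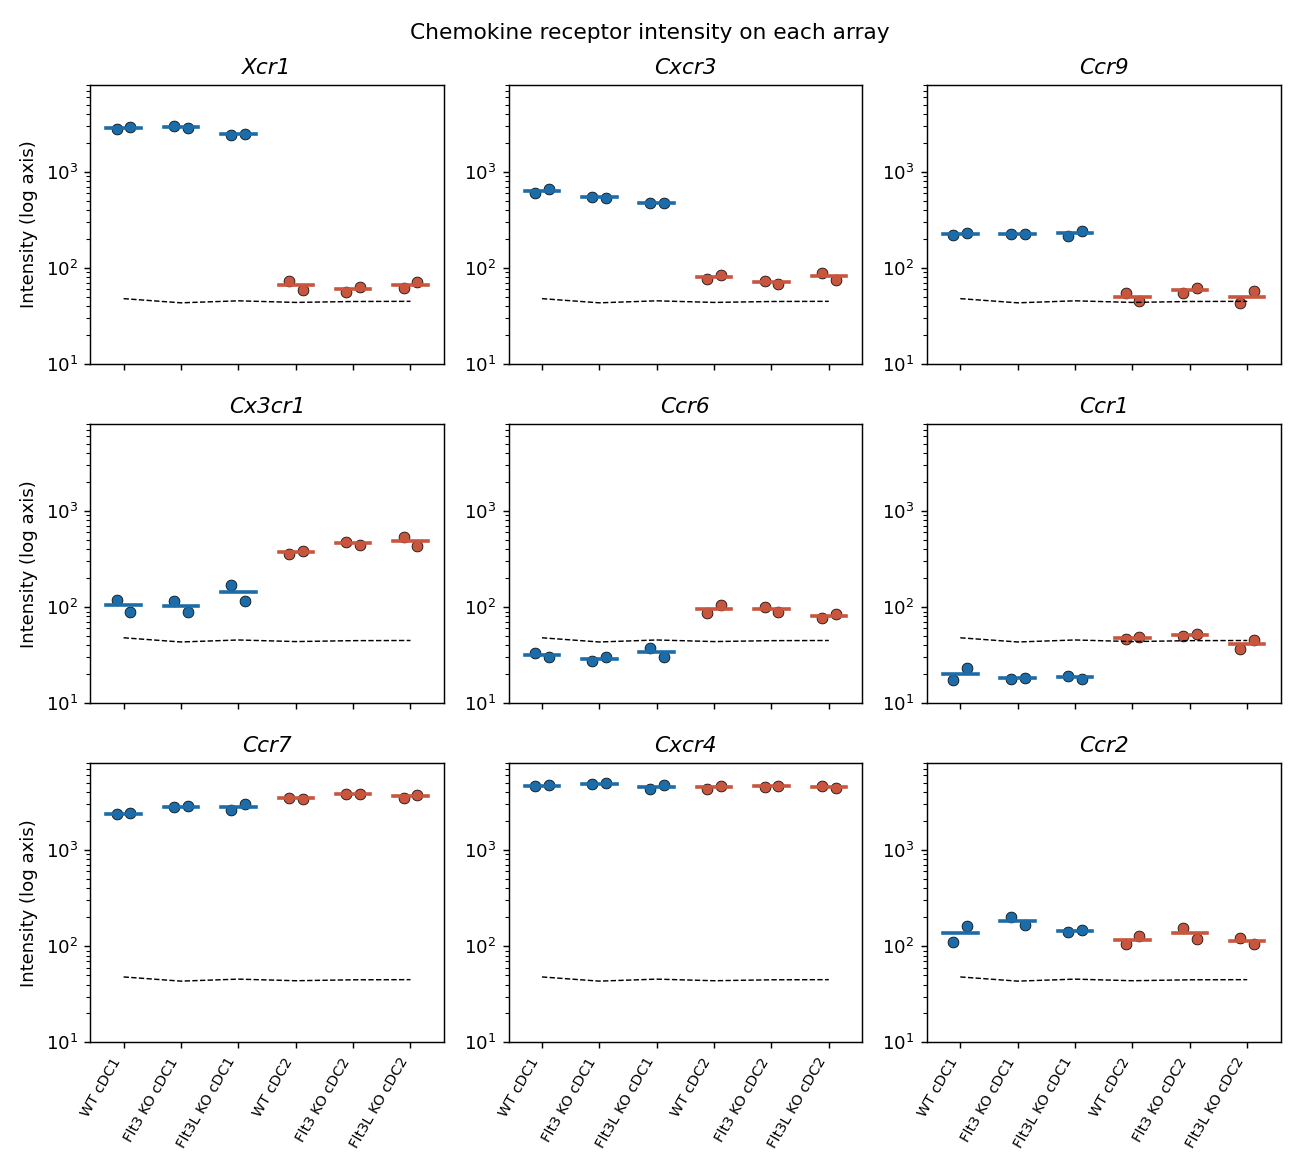
Intensity of each of the 9 chemokine receptors on every array (points, log axis), with the mean of each group (bar), cDC1 in blue and cDC2 in red; the dashed line is the 95th percentile of olfactory receptor genes in that group. Xcr1, Cxcr3 and Ccr9 sit far higher in the 6 cDC1 arrays, Cx3cr1, Ccr6, Ccr1 and Ccr7 higher in the 6 cDC2 arrays, and Cxcr4 lies between 4314 and 4960 on every array.

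The study compared cDC1 with cDC2 within each genotype, and most of the receptors differed. Of the 9, 3 were higher in cDC1 (Xcr1, Cxcr3 and Ccr9) and 4 were lower (Cx3cr1, Ccr6, Ccr1 and Ccr7) in WT, in Flt3 KO and in Flt3L KO, at an adjusted p under 0.05 in limma. The same 7 receptors passed in each genotype, and Cxcr4 and Ccr2 did not. Of all genes tested, 21.0% were higher and 18.4% lower in cDC1 in WT, 19.1% and 16.4% in Flt3 KO, and 18.9% and 15.9% in Flt3L KO. The median size of the 9 differences in WT was 1.59 on the log2 scale, beside 0.20 over all genes tested. The receptors were chosen with earlier results of these data known. The contrast with all genes therefore describes these 9 and not chemokine receptors as a class. In bulk RNA of a sorted population, fewer cells that express a gene and less RNA per cell cannot be told apart.

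**Figure D2:**
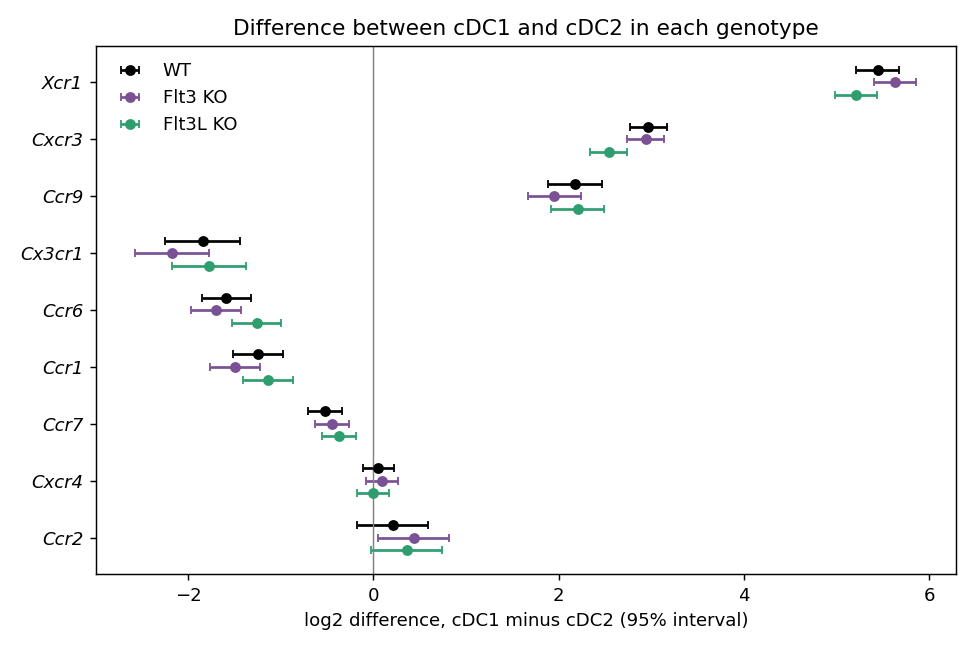
Log2 difference of each receptor, cDC1 minus cDC2, in WT (black), Flt3 KO (purple) and Flt3L KO (green), with its 95% interval from limma. The differences run from 5.63 for Xcr1 in Flt3 KO to -2.17 for Cx3cr1 in Flt3 KO, and the intervals of Cxcr4 span 0 in each genotype.

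Xcr1 is the receptor for Xcl1, a chemokine of natural killer and CD8 T cells, and is a defining receptor of cDC1. Its intensity was 2799 and 2957 on the WT cDC1 arrays and 73.7 and 59.6 on the WT cDC2 arrays. In Flt3 KO it read 3020 and 2885 in cDC1 and 56.3 and 63.1 in cDC2. In Flt3L KO it read 2421 and 2469 in cDC1 and 62 and 70.6 in cDC2. Every cDC1 array lay far above every cDC2 array, and the cDC2 levels were only 1.33 to 1.52 times the 95th percentile of olfactory receptor genes. The cDC1 level was 43.4 times that of cDC2 in WT (95% interval 37 to 50.9, adjusted p = 2.2e-12), 49.5 times in Flt3 KO and 36.9 times in Flt3L KO. Because the cDC2 signal is close to that of genes not expected in these cells, the ratio may be understated.

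Cxcr3 is the receptor for Cxcl9, Cxcl10 and Cxcl11, chemokines induced by interferon. It read 597 and 670 in WT cDC1 against 77.5 and 84.3 in WT cDC2. The values were 549 and 539 against 73.2 and 68.7 in Flt3 KO, and 471 and 478 against 87.9 and 75.6 in Flt3L KO. The groups of both cell types were thus well separated in each genotype, with the cDC1 arrays falling in the order WT, Flt3 KO, Flt3L KO. On the log2 scale cDC1 exceeded cDC2 by 2.97 ± 0.09 (SE) in WT (adjusted p = 5.9e-11), 2.94 ± 0.09 in Flt3 KO and 2.54 ± 0.09 in Flt3L KO, which correspond to 7.82, 7.68 and 5.82 times. Cxcr3 is also known on T and natural killer cells. Of 6 T cell markers with a value, Cd3d, Cd3g and Themis were under the olfactory 95th percentile in every group. Cd5, Cd3e and Bcl11b were above it, at 235, 76.4 and 63 in WT cDC1 and 304, 65.2 and 62.1 in WT cDC2. The sum of the 6 was 395 to 448 in the cDC1 arrays and 440 to 495 in the cDC2 arrays. Of 6 natural killer cell markers, Ncr1, Klrb1c, Gzma and Eomes were under the olfactory 95th percentile in every group. Prf1 was above it in every group, and Klre1 was above it in the cDC2 groups only. The part of such cells in the Cxcr3 difference was not tested.

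Ccr9 is the receptor for Ccl25, known for homing to the small intestine and, among dendritic cells, for its presence on plasmacytoid cells. It read 221 and 231 in WT cDC1 against 55.2 and 45.3 in WT cDC2. The Flt3 KO arrays gave 227 and 224 against 54.8 and 61.9, and the Flt3L KO arrays 215 and 243 against 42.8 and 57.4. All 6 cDC1 arrays lay in a narrow band, and the cDC2 level was 1.11 to 1.3 times the olfactory 95th percentile. The log2 difference was 2.18 ± 0.13 (SE) in WT (adjusted p = 3.4e-08), 1.95 ± 0.13 in Flt3 KO and 2.20 ± 0.13 in Flt3L KO. Summed over the 7 plasmacytoid dendritic cell markers with a value, intensity ranged from 1522 to 1842 in the cDC1 arrays and from 1501 to 1741 in the cDC2 arrays, and the marker Ly6d was under the olfactory 95th percentile in every group. Bst2 alone gave 862 in WT cDC1 and 633 in WT cDC2. In WT 2 of the 7 were higher (Cd300c and Bst2) and 2 lower (Tcf4 and Spib) in cDC1. In both knockouts Bst2 was higher and Tcf4, Spib and Siglech lower in cDC1, with Cd300c higher in Flt3 KO only. Siglech differed by -0.95 ± 0.20 (SE) in Flt3 KO and -0.65 ± 0.20 in Flt3L KO. The part of such cells in the Ccr9 difference was not tested.

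Cx3cr1 is the receptor for fractalkine (Cx3cl1) and is known on monocytes, macrophages and a fraction of dendritic cells. It read 118 and 89.8 in WT cDC1 against 356 and 385 in WT cDC2. In Flt3 KO it read 117 and 89.5 against 480 and 443, and in Flt3L KO 171 and 117 against 541 and 434. The cell types did not overlap in any genotype, although replicates of Cx3cr1 differed more than those of most receptors here. The log2 difference, cDC1 minus cDC2, was -1.84 ± 0.18 (SE) in WT (adjusted p = 3.8e-06), -2.17 ± 0.18 in Flt3 KO and -1.78 ± 0.18 in Flt3L KO. Of 8 tested macrophage markers, 5 were also lower and 2, Vcam1 and Hmox1, higher in cDC1 than in cDC2 in WT. Summed intensities were 782 to 796 in cDC1 and 1707 to 1727 in cDC2, of which Adgre1 alone gave 41.5 and 969. The sum of 6 monocyte markers had the opposite order, at 4911 to 5158 in WT cDC1 and 3679 to 3776 in WT cDC2. Treml4 alone gave 2034 and 377.5 of these sums. Among the 6 markers, Csf1r was lower in cDC1 (103 against 1198 in cDC2). Treml4, Lyz2 (1249 against 726) and Itgal (898 against 568) were higher in cDC1. The part of such cells in the Cx3cr1 difference was not tested.

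Ccr6 is the receptor for Ccl20, known for drawing cells toward epithelia and follicles. It read 33.5 and 30.3 in WT cDC1 against 86.5 and 106 in WT cDC2. The Flt3 KO arrays gave 27.7 and 30.5 against 99.1 and 89.8, and the Flt3L KO arrays 37.5 and 30.2 against 76.5 and 84.9. Ccr6 in cDC1 was below the olfactory 95th percentile in every genotype, at 0.666 to 0.744 times that level, whereas in cDC2 it was above it. On the log2 scale cDC1 minus cDC2 was -1.59 ± 0.12 (SE) in WT (adjusted p = 3.4e-07), -1.70 ± 0.12 in Flt3 KO and -1.26 ± 0.12 in Flt3L KO.

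Ccr1 is a receptor for inflammatory chemokines such as Ccl3 and Ccl5. It read 17.4 and 23 in WT cDC1 against 46.2 and 48.8 in WT cDC2. The values were 18.1 and 18.1 against 49.6 and 52.2 in Flt3 KO, and 19.2 and 17.9 against 36.8 and 45.2 in Flt3L KO. The order of the cell types was the same in each genotype, but Ccr1 was near the signal of olfactory receptor genes throughout. Its mean was below their 95th percentile in each cDC1 group and in Flt3L KO cDC2, and at most 1.14 times it in the other cDC2 groups. The log2 difference was -1.25 ± 0.12 (SE) in WT (adjusted p = 3.7e-06), -1.49 ± 0.12 in Flt3 KO and -1.14 ± 0.12 in Flt3L KO. For Ccr6 and Ccr1 the differences rest on dim probe sets and may be understated.

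Ccr7 is the receptor for Ccl19 and Ccl21 and rises as dendritic cells mature. It read 2381 and 2407 in WT cDC1 against 3466 and 3415 in WT cDC2. The Flt3 KO arrays gave 2774 and 2870 against 3836 and 3874, and the Flt3L KO arrays 2600 and 3032 against 3481 and 3766. Ccr7 was thus bright in both cell types, at the percentiles 98.7 to 99.4 of all genes with a value, and every cDC2 array lay above every cDC1 array. The log2 difference was smaller than those above, at -0.52 ± 0.08 (SE) in WT (adjusted p = 0.00026), -0.45 ± 0.08 in Flt3 KO and -0.37 ± 0.08 in Flt3L KO. In Flt3L KO the call was lost without cDC1 replicate 1 (-0.26, adjusted p = 0.064).

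Cxcr4, the receptor for Cxcl12, was bright and near equal in both cell types. It read 4593 and 4748 in WT cDC1 and 4314 and 4680 in WT cDC2. In Flt3 KO it read 4842 and 4960 in cDC1 and 4538 and 4645 in cDC2, and in Flt3L KO 4354 and 4739 against 4668 and 4440. The arrays of the cell types overlapped in WT and in Flt3L KO. The log2 difference was 0.06 in WT (95% interval -0.11 to 0.23, adjusted p = 0.61), 0.09 in Flt3 KO and 0.00 in Flt3L KO.

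Ccr2, the receptor for Ccl2 and a marker of monocytes and their progeny, was dimmer and more variable. It read 112 and 162 in WT cDC1 and 105 and 129 in WT cDC2. In Flt3 KO it read 204 and 165 in cDC1 and 155 and 119 in cDC2, and in Flt3L KO 141 and 148 against 121 and 105. Mean levels were higher in cDC1 in each genotype, with overlapping arrays in WT. The log2 difference was 0.21 ± 0.18 (SE) in WT (adjusted p = 0.37), 0.43 ± 0.18 in Flt3 KO (adjusted p = 0.075) and 0.36 ± 0.18 in Flt3L KO (adjusted p = 0.14). Without WT cDC1 replicate 1 the WT difference was 0.48 (adjusted p = 0.049), without WT cDC1 replicate 2 it turned to -0.06 (adjusted p = 0.8), and without Flt3 KO cDC2 replicate 1 the Flt3 KO difference was 0.63 (adjusted p = 0.037). Averaged over the 3 genotypes, Ccr2 was 0.34 ± 0.10 higher in cDC1 (adjusted p = 0.014). In that average 8 of the 9 receptors passed, with Cxcr4 the exception, beside 28.1% of all genes higher and 23.5% lower.

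Promoter sequences are shown for the receptors with the largest difference in favour of each cell type, Xcr1 and Cx3cr1. Those of Cxcr3 and Ccr1 are added, as their upstream windows hold a searched motif, like that of Cx3cr1. The Xcr1 window holds none, nor do those of Ccr2, Ccr6, Ccr9 and Cxcr4. The sequences come from RefSeq on GRCm38.p6. They cover the 250 bases before the annotated start, 5′ to 3′ on the gene's strand, so a start further upstream is not covered. Capitals mark a match to TGTGGT, the core bound by RUNX factors, or to GAGGAAGT, an ETS site of the PU.1 type, read on either strand. All matches here were on the opposite strand and so appear as their reverse complement. The windows are chr9:123862030-123862279 for Xcr1, chrX:101734148-101734397 for Cxcr3, chr9:120068297-120068546 for Cx3cr1 and chr9:123968693-123968942 for Ccr1, all on the minus strand.
Xcr1: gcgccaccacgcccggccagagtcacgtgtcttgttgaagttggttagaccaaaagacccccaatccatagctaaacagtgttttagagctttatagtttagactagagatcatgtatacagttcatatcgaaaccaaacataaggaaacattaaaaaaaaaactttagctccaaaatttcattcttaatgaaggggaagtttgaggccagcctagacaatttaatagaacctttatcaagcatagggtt
Cxcr3: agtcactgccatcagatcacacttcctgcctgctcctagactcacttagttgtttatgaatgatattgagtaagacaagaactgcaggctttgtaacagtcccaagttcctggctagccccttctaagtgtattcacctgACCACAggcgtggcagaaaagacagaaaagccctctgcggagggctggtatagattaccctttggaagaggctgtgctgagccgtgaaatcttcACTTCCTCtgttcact
Cx3cr1: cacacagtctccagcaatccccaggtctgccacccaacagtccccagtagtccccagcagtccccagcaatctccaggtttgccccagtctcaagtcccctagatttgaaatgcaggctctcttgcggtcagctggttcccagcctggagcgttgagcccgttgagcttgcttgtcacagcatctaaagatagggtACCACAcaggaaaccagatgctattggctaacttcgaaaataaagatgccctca
Ccr1: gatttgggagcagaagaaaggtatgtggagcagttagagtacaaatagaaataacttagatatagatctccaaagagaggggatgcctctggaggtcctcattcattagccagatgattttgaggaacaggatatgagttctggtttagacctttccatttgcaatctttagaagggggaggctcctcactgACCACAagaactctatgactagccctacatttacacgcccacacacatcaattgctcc
The RUNX core lay 110 to 105 bases before the start in Cxcr3, 54 to 49 bases in Cx3cr1 and 58 to 53 bases in Ccr1, and the ETS match 16 to 9 bases before the start in Cxcr3. The RUNX core is thus found in a receptor higher in cDC1 and in receptors higher in cDC2, and the ETS match in Cxcr3 alone of the 4. Of 32851 promoters of the same length, 14% hold the RUNX core and 2.44% the ETS site. The table matched 8 of the 9 receptors, Ccr7 being the exception, with 9 start sites. Searches for TGANTCA (AP-1, in 6.75% of promoters), GAAA repeated after any 2 bases (an IRF repeat, 2.98%), GGAA followed after any 2 bases by GAAA (a joint ETS and IRF site, 2.3%) and GGGA followed after any 2 bases by TTCC (NF-kB, 1.21%) found no match in these windows. The IRF repeat and the joint site can overlap each other, and the RUNX and ETS words do not share letters in the Cxcr3 window.

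Among receptor genes near Xcr1 the differences were smaller, and that of Ccr1 was in the opposite direction. On chromosome 9, RefSeq places 8 coding genes from Ccr9 to Ccr2, in the order Ccr9, Fyco1, Cxcr6, Xcr1, Ccr1, Ccr1l1, Ccr3 and Ccr2, of which 7 are chemokine receptors. Among the 4 receptors tested, Ccr9 and Xcr1 were higher in cDC1 in WT, Ccr1 was lower and Ccr2 did not pass. Xcr1 and its direct neighbour Ccr1 thus lay at opposite ends, with log2 differences of 5.44 and -1.25. Cxcr6, which lies between Fyco1 and Xcr1, read 22 in WT cDC1 and 18.7 in WT cDC2, and Ccr3 read 25.9 and 28.9. Cxcr6, Ccr3 and Ccr1l1 were below the olfactory 95th percentile in both WT cell types and were left out as dim. Fyco1, a gene of vesicle transport within the cluster, differed by 0.13 ± 0.09 in WT (adjusted p = 0.26), 0.24 ± 0.09 in Flt3 KO (adjusted p = 0.045) and 0.31 ± 0.09 in Flt3L KO (adjusted p = 0.014). Cx3cr1 lies elsewhere on chromosome 9, Ccr6 on chromosome 17, Ccr7 on chromosome 11, Cxcr3 on chromosome X and Cxcr4 on chromosome 1.

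**Figure D3:**
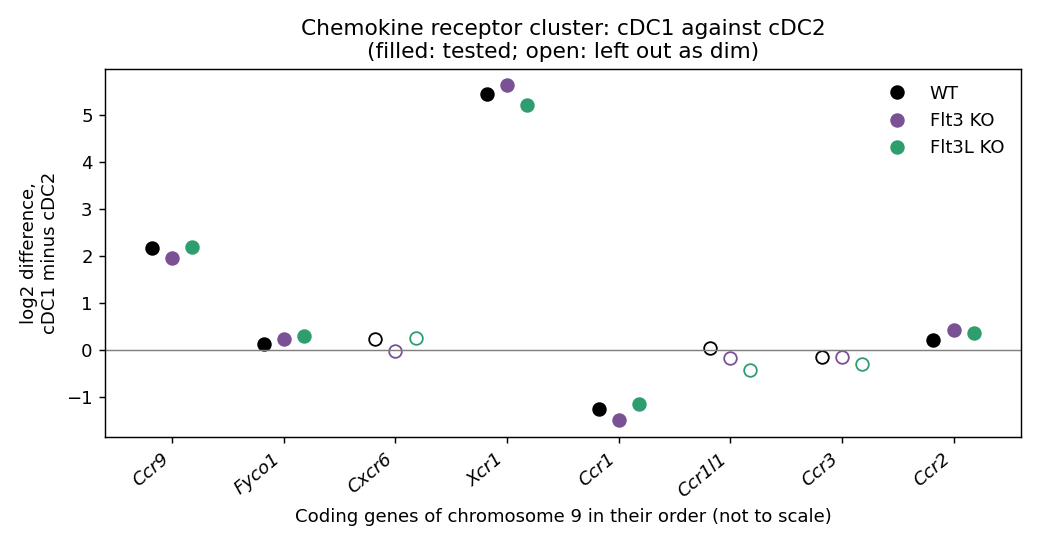
Log2 difference, cDC1 minus cDC2, of the coding genes from Ccr9 to Ccr2 on chromosome 9 in their order along the chromosome (not to scale), in WT (black), Flt3 KO (purple) and Flt3L KO (green); open points are genes left out as dim. Xcr1 (5.44 in WT) and Ccr9 (2.18) lie above 0, Ccr1 (-1.25) below it, and the dim genes near it.

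The study also compared each knockout with WT within a cell type, which asks what loss of the receptor or of its ligand does to the cells that remain. None of the 9 receptors passed in any of these comparisons in limma. The share of all genes called was 0.0803% for Flt3 KO in cDC1, 0.107% for Flt3 KO in cDC2, 1.19% for Flt3L KO in cDC1 and 1.95% for Flt3L KO in cDC2. At an unadjusted p under 0.05 there were 3 of the 9 for Flt3 KO and 4 for Flt3L KO in cDC1, beside 12.5% and 17.1% of all genes, and 0 for both in cDC2, beside 7.28% and 14.6%. The comparisons of both knockouts share the WT arrays. The comparison of Flt3L KO with Flt3 KO also gave 0 of 9, with 2 at an unadjusted p under 0.05 in each cell type (15.8% of all genes in cDC1 and 12.7% in cDC2), where 0.883% of all genes were called in cDC1 and 0.930% in cDC2. In Flt3 KO cDC1, 12 of all genes were called, and 1133 without WT cDC1 replicate 2. Without that array, Ccr2 passed for Flt3 KO in cDC1 (0.72, adjusted p = 0.033), and without WT cDC1 replicate 1 its difference was 0.18. Averaged over both cell types, 0 of 9 passed in Flt3 KO and 0 in Flt3L KO, beside 0.254% and 3.0% of all genes, with 3 of 9 at an unadjusted p under 0.05 in each, beside 10.2% and 17.3% of all genes.

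**Figure D4:**
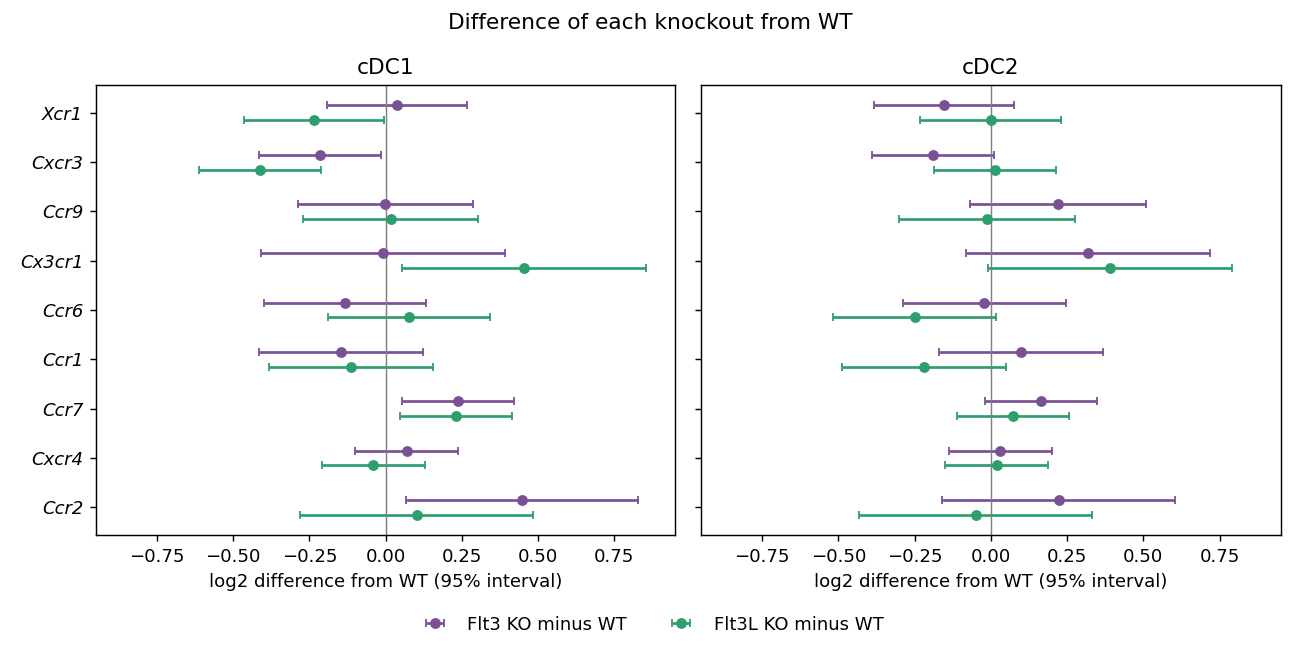
Log2 difference of each receptor from WT in cDC1 (left) and cDC2 (right), for Flt3 KO (purple) and Flt3L KO (green), with its 95% interval from limma, not adjusted over genes. All points lie between -0.41 for Cxcr3 in Flt3L KO cDC1 and 0.46 for Cx3cr1 in Flt3L KO cDC1, and no difference passed after adjustment.

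Cxcr3 came closest to a call. The Cxcr3 mean fell in the order WT, Flt3 KO and Flt3L KO within cDC1, at 633 ± 51.9, 544 ± 7.11 and 475 ± 5.22 (SD, n = 2). The arrays of these groups did not overlap. The share of all genes without such overlap was not counted, so this is given as a description only. The difference of Cxcr3 from WT was -0.22 ± 0.09 (SE) in Flt3 KO cDC1 (adjusted p = 0.38) and -0.41 ± 0.09 in Flt3L KO cDC1 (adjusted p = 0.053). The Flt3L KO value ranged from -0.50 to -0.33 over 20 alternative settings and passed under only 4 of them. Among the 4 were quantile normalization (-0.43, adjusted p = 0.039) and a block of crossed replicate numbers, which was added after seeing the data. Without WT cDC1 replicate 1 the value was -0.50 and was not called. In cDC2 the difference was -0.19 ± 0.09 in Flt3 KO (adjusted p = 0.72) and 0.01 ± 0.09 in Flt3L KO (adjusted p = 0.97). The Flt3L KO effect was 0.43 ± 0.13 higher in cDC2 than in cDC1, which did not pass (adjusted p = 0.18).

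Xcr1, the defining receptor of cDC1, did not pass in either knockout. The difference in cDC1 was 0.04 ± 0.11 (SE) in Flt3 KO (95% interval -0.19 to 0.27, adjusted p = 0.9). In Flt3L KO cDC1 it was -0.23 ± 0.11 (95% interval -0.46 to -0.00, adjusted p = 0.28). Both Flt3L KO arrays lay below both WT arrays. The share of all genes that lie apart in this way was not counted, so this is given as a description only. Ccr9 in cDC1 differed from WT by -0.00 ± 0.13 in Flt3 KO (95% interval -0.29 to 0.29) and by 0.02 ± 0.13 in Flt3L KO. The 95% intervals of Cxcr4 lay between -0.21 and 0.24 in all 4 comparisons with WT.

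Ccr7 was read higher in both knockouts, although no difference passed. It was 0.24 ± 0.08 (SE) above WT in Flt3 KO cDC1 (adjusted p = 0.31), 0.16 ± 0.08 in Flt3 KO cDC2 (adjusted p = 0.74), 0.23 ± 0.08 in Flt3L KO cDC1 (adjusted p = 0.19) and 0.07 ± 0.08 in Flt3L KO cDC2 (adjusted p = 0.75). Both knockout arrays lay above both WT arrays in each of these, in Flt3L KO cDC2 by as little as 3481 against 3466. The share of all genes whose arrays lie apart in this way was not counted, so the separation is given as a description only. The comparisons share their WT arrays within a cell type. Averaged over both cell types the differences were 0.20 ± 0.06 in Flt3 KO and 0.15 ± 0.06 in Flt3L KO.

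Cx3cr1 was read higher in Flt3L KO, by 0.46 ± 0.18 (SE) in cDC1 (adjusted p = 0.23) and 0.39 ± 0.18 in cDC2 (adjusted p = 0.35), and by 0.42 ± 0.13 averaged over both (adjusted p = 0.11). The arrays of Flt3L KO and WT overlapped in cDC1, where the value was 0.18 without Flt3L KO cDC1 replicate 1 and 0.73 without replicate 2, and neither passed. The average passed without Flt3L KO cDC1 replicate 2 (0.56, adjusted p = 0.045). In Flt3 KO the difference was -0.01 ± 0.18 in cDC1 and 0.32 ± 0.18 in cDC2. Of 8 tested macrophage markers, 6 were higher and 1 lower in Flt3L KO cDC2 than in WT cDC2. The rises included C1qa (2.20 ± 0.15), a component of complement, Vcam1 (1.19 ± 0.08), an adhesion molecule, and Mertk (1.00 ± 0.08), a receptor for dying cells. The marker that was lower was Adgre1 (-0.67 ± 0.10, adjusted p = 0.0048), which at 969 was the brightest of them in WT cDC2. In Flt3 KO cDC2, C1qa (1.13 ± 0.15, adjusted p = 0.011 in limma) and Vcam1 (0.51 ± 0.08, adjusted p = 0.032) were also higher than in WT. The other tested macrophage markers did not pass there. The summed intensity of the macrophage markers was 2581 to 2961 in Flt3L KO cDC2, 1931 to 1955 in Flt3 KO cDC2 and 1707 to 1727 in WT cDC2. In cDC1 no macrophage marker passed in either knockout, and the sums were 743 to 825 in Flt3L KO and 782 to 796 in WT. Of 6 tested monocyte markers, 2 were higher in Flt3L KO cDC2, Lyz2 (0.75 ± 0.09) and Treml4 (0.72 ± 0.16). Both were also higher in WT cDC1 than in WT cDC2. In Flt3 KO cDC2, Lyz2 was higher than in WT as well (0.74 ± 0.09, adjusted p = 0.0076 in limma). The other tested monocyte markers did not pass there. The 6 markers summed to 5093 to 5161 in Flt3L KO cDC2, 4502 to 4955 in Flt3 KO cDC2 and 3679 to 3776 in WT cDC2. In cDC1 they summed to 4911 to 5158 in WT and 3848 to 4171 in Flt3L KO. Fcgr1, the high-affinity Fc receptor, was above the olfactory 95th percentile only in the mean of Flt3L KO cDC2. The part of such cells in the Cx3cr1 values was not tested.

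The other receptors of cDC2 and Ccr2 gave no call. Ccr6 differed from WT by -0.25 ± 0.12 (SE) in Flt3L KO cDC2 (adjusted p = 0.37), and by -0.02 ± 0.12 in Flt3 KO cDC2. Ccr1 differed by -0.22 ± 0.12 in Flt3L KO cDC2 (adjusted p = 0.46) and by 0.10 ± 0.12 in Flt3 KO cDC2. Ccr2 differed by 0.45 ± 0.18 in Flt3 KO cDC1 (95% interval 0.07 to 0.83, adjusted p = 0.36), by 0.22 ± 0.18 in Flt3 KO cDC2, and by 0.10 ± 0.18 and -0.05 ± 0.18 in Flt3L KO cDC1 and cDC2.

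Whether a knockout acted differently on the cell types was tested by the interaction term. None of the 9 receptors passed for Flt3 KO, where 0% of all genes did and 0 of the 9 had an unadjusted p under 0.05, beside 8.97% of all genes. None passed for Flt3L KO, where 0.495% of all genes did and 1 of the 9, Cxcr3, had an unadjusted p under 0.05 (0.0064), beside 14.8% of all genes. The cDC1 against cDC2 differences of the 7 called receptors had the same direction in each genotype, and no change in their size with genotype passed.

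Genes whose values over the 12 arrays were most like each receptor's are given as a description. The arrays fall into 2 cell types, so a high Pearson correlation mostly follows that split. For Xcr1 they were Plpp1 (r = 0.999) and Laptm4b (r = 0.999), and within the 6 cDC1 arrays Plpp1 had r = 0.891. For Cxcr3 they were Cenpv (r = 0.999, and 0.951 within cDC1) and Agpat3 (r = 0.998). For Ccr9 they were Afap1 (r = 0.997) and Sh3pxd2b (r = 0.996), whose r within cDC1 was 0.489 and 0.14. Among receptors higher in cDC2, Cx3cr1 was most like Ifi30 (r = 0.989, and 0.977 within the 6 cDC2 arrays) and Washc2 (r = 0.989), Ccr6 like St8sia1 (r = 0.991) and Ddr1 (r = 0.99), and Ccr1 like Nav1 (r = 0.993) and Mgl2 (r = 0.988). Ccr7, Cxcr4 and Ccr2 spanned too small a range for this measure.

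Other chemokine receptors were mostly dim. Of 14 on a list, all had a value and 5 passed the filter. Over all genes, 18.9% to 21.0% were higher and 15.9% to 18.4% lower in cDC1. Of the 5 receptors, 0 were higher and 2 lower in each genotype. They were Ccrl2, an atypical receptor that binds chemerin (137 ± 25.9 in WT cDC1 and 352 ± 36.4 in WT cDC2, SD, n = 2; log2 difference -1.37 ± 0.12), and Ackr1, a scavenging receptor (28.4 ± 3.22 and 73.4 ± 3.84; -1.37 ± 0.14), which was under the olfactory 95th percentile in WT cDC1. In both knockouts, 0 of the 5 passed against WT in either cell type.

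Chemokine genes encoding ligands of the 9 receptors were split between the cell types. Of 19 listed, 15 were tested. In WT 6 were higher and 6 lower in cDC1, beside 21.0% and 18.4% of all genes. The median size of the differences was 0.60 on the log2 scale. Cxcl9, a ligand of Cxcr3, was the largest difference, at 1874 ± 119 (SD, n = 2) in WT cDC1 and 189 ± 3.08 in WT cDC2, or 9.92 times. Ccl2, the ligand of Ccr2, was also higher in cDC1 (0.94 ± 0.13). Ccl3 and Ccl9, ligands of Ccr1, were lower in cDC1, by -1.56 ± 0.16 and -1.17 ± 0.13. In Flt3 KO 0 of the 15 passed against WT in either cell type. In Flt3L KO cDC1, where 1.19% of all genes were called, 2 fell, Ccl3 and Ccl4, which encode closely related inflammatory chemokines. Ccl3 went from 1184 ± 26.7 in WT to 617 ± 138 (-0.96 ± 0.16, adjusted p = 0.014), a call lost without Flt3L KO cDC1 replicate 1 (adjusted p = 0.13). Ccl4 fell by 0.57 (adjusted p = 0.034), and was not called without that array (-0.39, adjusted p = 0.23), without WT cDC1 replicate 1 (adjusted p = 0.072) and in 5 of the other leave-one-out fits.

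**Figure D5:**
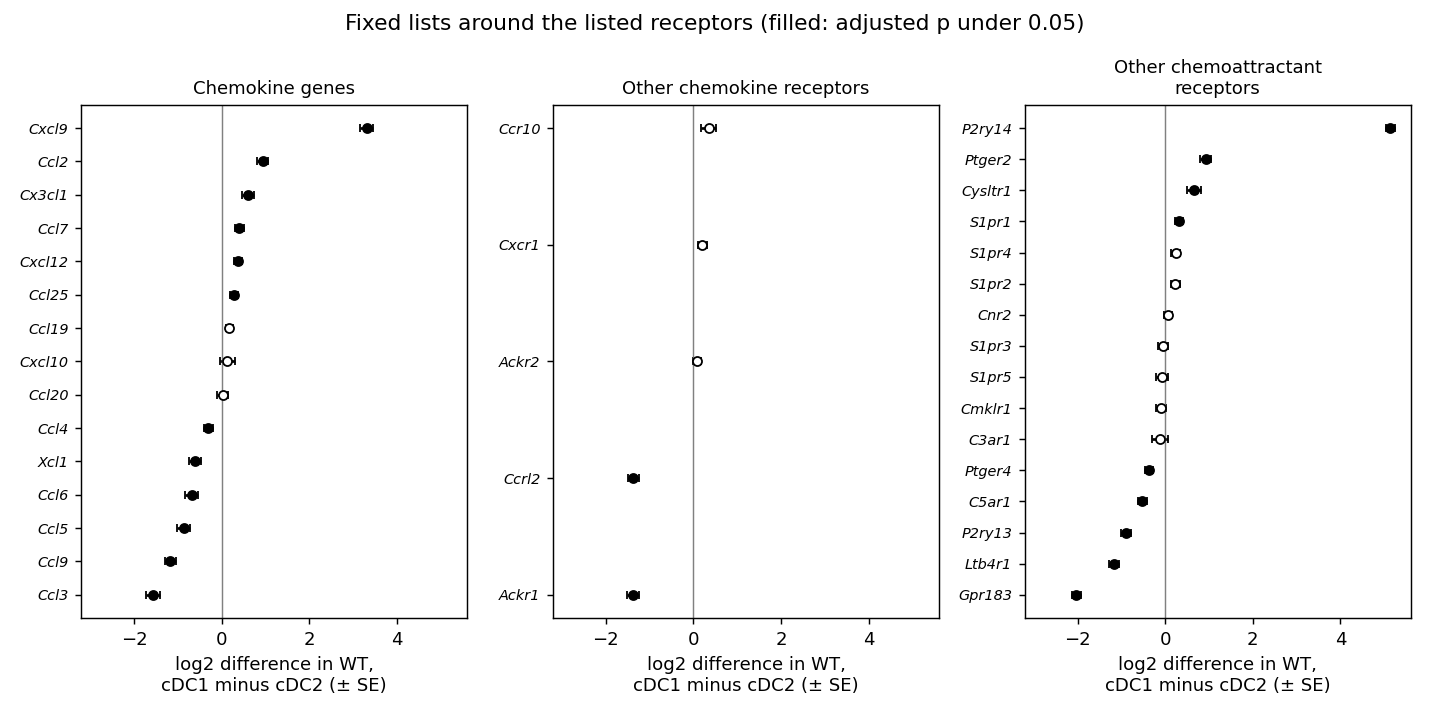
Log2 difference, cDC1 minus cDC2, in WT with its SE, for the tested genes of 3 fixed lists: chemokines that bind the 9 receptors (left), other chemokine receptors (middle) and other chemoattractant receptors (right). Filled points passed at an adjusted p under 0.05; Cxcl9 (3.31) and P2ry14 (5.14, against a dim cDC2 level) stand highest, and Gpr183 (-2.03) lowest.

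Receptors for other attractants and positioning signals also divided between the cell types, with 4 of 16 tested higher and 5 lower in cDC1 in WT, beside 21.0% and 18.4% of all genes. The median size of their differences was 0.34 on the log2 scale, beside 0.20 over all genes. P2ry14, a receptor for UDP-sugars, was higher in cDC1, at 1275 ± 11.9 against 36.3 ± 2.86 in cDC2 (SD, n = 2), a level under the olfactory 95th percentile of 43.8. Gpr183, the oxysterol receptor that places cDC2 in the spleen, was lower in cDC1 (-2.03 ± 0.09), as was Ltb4r1, a receptor for leukotriene B4 (-1.17 ± 0.12). In Flt3L KO cDC2, 5 of the 16 were higher than in WT, beside 1.95% of all genes called and none of the 9 receptors. They included P2ry14, which went from 36.3 ± 2.86 to 74 ± 12.4 (1.02 ± 0.11, adjusted p = 0.00054), and S1pr1, a receptor for sphingosine 1-phosphate (0.70 ± 0.10, adjusted p = 0.0044), not called without WT cDC2 replicate 1 (0.62, adjusted p = 0.056). P2ry14 and S1pr1 in WT cDC2 both lay under that percentile. The macrophage marker sums given above were higher in the same Flt3L KO arrays, and their part here was not tested. In Flt3L KO cDC1 1 of the 16 was lower, beside 1.19% of all genes called, and in Flt3 KO 0 passed in either cell type.

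Genes that carry or end the signal of chemokine receptors had a median size of difference of 0.36 in WT. Of 31 tested, 7 were higher and 12 lower in cDC1, beside the shares of 21.0% and 18.4% of all genes. Lower in cDC1 were Pik3r6, a regulatory subunit of phosphoinositide 3-kinase gamma (-1.72 ± 0.11), Grk3, a kinase that desensitises receptors (-1.27 ± 0.08), and Elmo1, an activator of Rac (-1.09 ± 0.08). Arrb1, which encodes beta-arrestin 1, was higher (0.73 ± 0.09). Against WT, 0 of the 31 passed in Flt3 KO and in Flt3L KO cDC2. In Flt3L KO cDC1, where 1.19% of all genes were called, 1 passed, Grk3 (0.37 ± 0.08, adjusted p = 0.049). That call was lost in every leave-one-out fit except the one without WT cDC1 replicate 2.

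Genes of dendritic cell maturation other than Ccr7 were set beside it. Of 20 tested, 5 were higher and 9 lower in cDC1 in WT, beside 21.0% and 18.4% of all genes. The median size of their differences was 0.56. Pdcd1lg2 and Cd274, which encode ligands of the inhibitory receptor PD-1, were lower in cDC1 (-1.90 ± 0.10 and -1.60 ± 0.09), and Cd200, a surface protein that restrains myeloid cells, was higher (0.91 ± 0.08). The median difference of the 20 genes from WT was 0.22 in Flt3 KO cDC1, 0.12 in Flt3 KO cDC2 and 0.10 in Flt3L KO cDC1 and cDC2, and 0 of the 20 passed in Flt3 KO. In Flt3L KO cDC1 Relb, an NF-kB subunit, was higher (0.50 ± 0.08, adjusted p = 0.013), a call lost without either Flt3L KO cDC1 array (adjusted p = 0.085 in each case). In Flt3L KO cDC2 3 were higher and 1 lower, beside 1.95% of all genes called in either direction. Fscn1, which bundles actin in mature dendritic cells, was among those higher (0.70 ± 0.13, adjusted p = 0.014). That call was lost without WT cDC2 replicate 2 (0.49) and without either Flt3L KO cDC2 array (0.71 and 0.69). The part of maturation state in the Ccr7 values was not tested.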

How the data were processed

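Per the labels, total RNA was labelled with the Ambion WT Expression kit and the GeneChip WT Terminal Labeling and Controls Kit. The deposited table holds an intensity, not log-transformed, for each of 30177 probe sets on each of the 12 arrays. The number of arrays limits the precision. What the authors did to summarise and normalize the values was not given in the sources used here. Probe sets with exactly 1 gene symbol in the platform annotation (21789) were used, the one with the highest mean for each gene. The lowest 25% of 19938 genes by mean log2 intensity were left out, except Flt3 and Flt3l, leaving 14953.

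Log2 intensities were fitted with 1 mean per group over all 12 arrays in limma 3.58.1 under R 4.3.3 (lmFit and eBayes, 6 residual degrees of freedom). Benjamini-Hochberg adjustment ran over the 14953 genes of each comparison, and a gene was called at an adjusted p under 0.05. The fit was tested on simulated data. The members and lists were chosen with earlier results of these data known. Named are the 9 receptors, Flt3 and Flt3l, up to 4 called members of each list in a comparison, and for each receptor whose group means spanned at least 1 on the log2 scale the 2 most correlated genes. Fyco1, Cxcr6, Ccr3 and Ccr1l1 are named for their place in the cluster, and Fcgr1 and other cell markers for their level. Results were recomputed after quantile normalization, with other filters or none, with limma's trended and robust prior, with probe sets averaged, on the compared arrays alone, with a replicate block, and without each array in turn. Averages over genotypes or cell types and a block of crossed replicate numbers were added after seeing the data. The replicate numbers were not taken to pair samples. RefSeq tables on GRCm38.p6 gave promoters and gene order; the array files name no build. A gene of the list of other chemokine receptors was left out and is not reported here.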

Additional observations from a re-analysis of the deposited data

Results flagged for a closer look

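For 3 genes of the lists around the receptors, the Flt3L KO effect differed between cDC2 and cDC1 by the interaction test in limma. P2ry14, the UDP-sugar receptor that was high in cDC1, went from 34.2 and 38.3 on the WT cDC2 arrays (under the olfactory 95th percentile of 43.8) to 82.8 and 65.2 on the Flt3L KO cDC2 arrays. In cDC1 it went from 1284 and 1267 to 1189 and 1171. The effect was 1.13 ± 0.15 (SE) higher in cDC2 (adjusted p = 0.0069), and this call held in every alternative run. For Cd200, a surface protein that restrains myeloid cells, the effect was 0.62 ± 0.12 higher in cDC2 (adjusted p = 0.045), with 84.7 and 76.4 in WT cDC2 and 126 and 140 in Flt3L KO cDC2. For Grk3, a kinase that desensitises receptors, the effect was lower in cDC2, at -0.60 ± 0.12 (adjusted p = 0.045). Grk3 read 395 and 404 in WT cDC1 against 520 and 515 in Flt3L KO cDC1, and 944 and 978 in WT cDC2 against 847 and 800 in Flt3L KO cDC2. The calls of Cd200 and Grk3 were lost in every fit that left out an array, except the one without WT cDC1 replicate 2. None of the 9 chemokine receptors passed this test.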

How the results depend on the processing

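Of the log2 differences of the 9 receptors under all alternatives, 2379 stayed on their side of the threshold, 13 passed it newly and 1 fell short of it. Of 543 values of called differences 0 changed sign, and of 1850 values of uncalled ones 76 did, none of them called, Ccr2 in WT among them (-0.06 to 0.48). With the dimmest share of 0.5 left out, Ccr1 and Ccr6 were not tested and 5 receptors passed between the cell types in each genotype, against 7. Leaving out arrays gave 7 to 8 receptors in WT, 7 to 8 in Flt3 KO and 6 to 7 in Flt3L KO. For Flt3L KO against WT in cDC1, 1 receptor (Cxcr3) passed instead of 0 under quantile normalization, with the dimmest 0.5 left out (adjusted p = 0.03), with the trended and robust prior (adjusted p = 0.021) and with crossed replicate numbers (adjusted p = 0.028). Leaving out arrays gave 0 to 1 receptors for Flt3 KO against WT in cDC1 and for the Flt3L KO average over both cell types. The labels do not say whether equal replicate numbers share mice, and the numbers were not taken to pair the samples. The correlation of deviations ran from -0.199 to 0.172 over 15 pairs of groups, and between cDC1 and cDC2 of a genotype it was 0.159 in WT, 0.0885 in Flt3 KO and 0.146 in Flt3L KO. With the replicate number as a block, 1 receptor (Cx3cr1, 0.42, adjusted p = 0.037) passed in the Flt3L KO average instead of 0, no other count of receptors in the knockout comparisons moved, and the genes called for Flt3L KO against WT in cDC1 went from 178 to 118. With crossed numbers, the genes called went from 178 to 281 there and from 12 to 20 for Flt3 KO in cDC1.

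Over all genes, counts of knockout calls moved by over 1.5 times under several settings. Leaving out arrays gave 3 to 1133 (12 in the fit of all arrays) for Flt3 KO and 25 to 610 (178) for Flt3L KO in cDC1, the highest without WT cDC1 replicate 2, and 2 to 21 (16) and 72 to 485 (291) in cDC2. The trended and robust prior gave 35, 545, 36 and 487 in the same order. With only the arrays compared, Flt3L KO cDC1 had 6. For Flt3L KO against Flt3 KO the range without an array was 16 to 349 (132) in cDC1 and 9 to 224 (139) in cDC2, and for the interactions 0 to 174 (0) and 20 to 485 (74). The averages gave 9 to 219 (38) for Flt3 KO and 144 to 591 (449) for Flt3L KO. The cause was not tested. Among other named genes, 331 values lost their call and 1 reversed: Ccl25, averaged over genotypes, had a log2 difference of -0.029 (adjusted p = 0.65) with the mean of its probe sets. Dim signal limits Ccr1 and Ccr6 in cDC1.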
